A study of Homo sapiens with 2 samples.

Results

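Of the 10487 entries of a piRNA database listed for U87MG, an established human glioblastoma cell line, 10 form the set named for tRNA-Gly. They were chosen by sequence: an entry was a member if its listed sequence shared 20 or more bases in a row with that of piR-35982, piR-35284, piR-61648 or piR-31925. These 4 entries had themselves been picked with their read counts known, so their high counts are a description. The rule finds entries like these 4 and may miss others that derive from tRNA-Gly. The cells were untreated and grew in MEM with 10% FBS and 1% antibiotics. The series holds 1 small RNA library and 1 mRNA library of them, with no replicate and no control, so no value below has a replicate check and no difference between entries was tested. The small RNA library was read as single-end reads of 50 bases. The file gives a read count for each entry, but not the reads themselves, so start and length are those of the listed sequence. The 10 members had 6186149 of 27299683 piRNA reads, or 22.7% (exact Clopper-Pearson 95% interval 22.6 to 22.7%). The reads carry no molecular identifiers and so are not independent molecules, and this interval and those below cover counting error only. The labels give an RNA integrity number of 8.7 for the small RNA.

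Transfer RNA for glycine brings that amino acid to the ribosome. Human cells carry many copies of its gene, made by RNA polymerase III from a promoter inside the gene, and trim and modify each transcript at both ends and along its length. Ribonucleases such as angiogenin can cut mature tRNA in the anticodon loop, and the 5′ fragment of tRNA-Gly is among the commonest tRNA fragments in small RNA libraries. True piRNAs, in contrast, guide PIWI proteins, mainly in germ cells. Some database entries named piRNA carry tRNA sequence. The RefSeq gene table for GRCh38 lists 30 tRNA-Gly genes, 13 with the anticodon GCC, 8 with CCC and 9 with TCC. No tRNA sequence was used here, so the link to tRNA-Gly rests on the name given to the set and was not checked. Reads of an entry cannot be assigned to any of these gene copies.

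The listed sequences show how the members overlap, and all 10 are given from the file, 5′ to 3′ and with T for U. Capitals mark the 13 bases that every member holds.
piR-35982: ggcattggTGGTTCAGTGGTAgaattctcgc
piR-35284: gcattggTGGTTCAGTGGTAgaattctcac
piR-61648: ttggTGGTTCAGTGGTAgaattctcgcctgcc
piR-31925: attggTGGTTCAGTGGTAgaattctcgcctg
piR-32679: cattggTGGTTCAGTGGTAgaattctcgc
piR-57660: TGGTTCAGTGGTAgaattctcgcctcc
piR-30456: acagtagcattggTGGTTCAGTGGTA
piR-31068: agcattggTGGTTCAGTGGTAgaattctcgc
piR-34358: gacattggTGGTTCAGTGGTAgaattct
piR-35221: gcagtagcattggTGGTTCAGTGGTAga

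The members were placed without gaps in a frame of 36 bases, made by extending piR-35982 with the 3′ end of piR-61648. Position 1 is the first base of piR-35982, and the start offset is the number of bases by which an entry starts after it. The frame reads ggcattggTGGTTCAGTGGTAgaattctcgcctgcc, and the 13 bases common to all members lie at its positions 9 to 21. Of the 45 pairs of members, 38 shared a run of 20 or more bases, and the longest shared runs of the pairs went from 13 to 30 bases with a median of 25. A read that lies within the overlap of several entries fits each of them. The labels and headers do not say how such reads were assigned.

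Nearly all reads of the set lay in the 4 named entries, and most in 1 of these. piR-35982, which starts at offset 0 and is 31 bases long, had 5357269 reads, 86.6% of the members' reads (86.6 to 86.6%). piR-35284, 30 bases from offset 1, had 274749 reads or 4.44% (4.43 to 4.46%). piR-61648, 32 bases from offset 4, had 258783 reads or 4.18% (4.17 to 4.20%). piR-31925, 31 bases from offset 3, had 253723 reads or 4.10% (4.09 to 4.12%). The last 3 entries were thus near each other in level, with piR-35284 at 1.06 times piR-61648 (1.06 to 1.07) and piR-61648 at 1.02 times piR-31925 (1.01 to 1.03). These intervals lie just above 1, but their order has no replicate check.

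The other 6 members together had 41625 reads, 0.673% of the set. piR-32679, 29 bases from offset 2, had 35941 of these, and piR-57660, 27 bases from offset 8, had 4542. piR-30456 (26 bases, offset -5) had 464 reads, and piR-31068 (31 bases, offset 0) had 410. piR-34358 (28 bases, offset 0) had 261 reads, and piR-35221 (28 bases, offset -5) had 7. Of the 10 members, 9 had at least 10 reads, against 12.7% of all piRNA entries. The 4 named entries count among the 9, and their levels were known when they were picked. The members' ranks in the file ran from 2 for piR-35982 and 9, 10 and 11 for the other named entries to 28 for piR-32679, 80 for piR-57660 and 1569 for piR-35221.

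By start offset, reads were concentrated at the first base of the frame and were fewer, unevenly, behind it. The frame was made to open with piR-35982, the most-read member, so the place of this peak follows from that choice. No frame position was matched to a base of a tRNA. Entries that start at offset 0 held 5357940 reads, 86.6% of the members' reads, nearly all in piR-35982. Offset 1 held 4.44%, offset 2 held 0.581%, offset 3 held 4.10%, offset 4 held 4.18% and offset 8 held 0.0734%. Offset 2 was therefore lower than the offsets on either side of it. Its only listed entry, piR-32679, was exceeded 7.64 times by piR-35284 at offset 1 (7.56 to 7.73) and 7.06 times by piR-31925 at offset 3 (6.98 to 7.14). But piR-32679 lies wholly inside piR-35982, and how reads that fit both were assigned is not known. The low share at offset 2 is thus one of entry counts, and may not be one of read starts. Without piR-35982, offset 0 held 0.0810% of the remaining reads and offset 1 the most, 33.1%. No listed member starts at offsets 5 to 7. The pair of entries that start before the frame, at offset -5, held 471 reads or 0.00761%.

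Most reads lay in entries with 1 common 3′ end, and this rested on piR-35982. Entries that end at position 31 of the frame were 4 in number, piR-35982, piR-35284, piR-32679 and piR-31068, and held 91.6% of the members' reads (91.6 to 91.7%). They start at offsets 0, 1, 2 and 0, so they differ in length only by what is missing at the 5′ end. Entries that reach past position 31 were 3 in number and held 8.36% (8.34 to 8.38%): piR-31925 ends at position 34, piR-57660 at 35 and piR-61648 at 36. Without piR-35982 the order of these shares was the opposite, with 37.5% of the remaining 828880 reads ending at position 31 and 62.4% past it. These are also the 3 entries that start latest, at offsets 3, 8 and 4. The remaining 3 members end at positions 21, 23 and 28 and had 732 reads together. The file thus lists no member that runs from offset 0 to an end past position 31, and none that starts at offset 3 or later and ends at 31. The longest members, at 32 and 31 bases, do not span the 36 bases of the frame.

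By listed length, entries of 31 bases held 90.7% of the members' reads (90.7 to 90.7%), those of 30 bases 4.44% and those of 32 bases 4.18%. Members of 29 bases held 0.581%, and those of 26 to 28 bases together had 5274 reads. This peak is 1 entry: without piR-35982 the commonest length was 30 bases with 33.1%, and 31 bases held 30.7%. Among the length classes that hold a member, 26 to 32 bases, the members' weight was greatest at 32 bases. They held 36.5% of the reads of all 32-base piRNA entries (36.4 to 36.6%), all of it piR-61648, and 25.2% of those of 31-base entries. Their share was 12.4% at 30 bases, 2.75% at 29 bases, 0.0604% at 28 bases, 1.90% at 27 bases and 0.345% at 26 bases. Of the 22235010 reads of the 31-base class, 13089145 were those of piR-60565, an entry named for tRNA-Glu. That the share was lower at 31 than at 32 bases rests on that entry. The members' median length was 29.5 bases, against 29 for the other 10477 entries, and their median GC content was 48.4% against 50%.

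The 4 members that match the frame at every base, piR-35982, piR-61648, piR-31925 and piR-32679, held 95.5% of the reads (95.45 to 95.5%). The first of them and piR-61648 made the frame, so their match is by construction. The other 6 members each differ from the frame at 1 base. Substitutions are written with the frame's base, the frame position and the entry's base. piR-35284 carries G30A, and it is the only listed entry that starts at offset 1. Whether the 274749 reads counted for it carried that A was not tested, since the files hold no read sequences and no source used here gives the mismatch rule. The 5 other entries with a substitution had 5684 reads, 0.0919% of the members' reads.

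Entries with another base at position 1 or 2 of the frame had few reads. piR-31068 is as long as piR-35982, has the same offset and differs from it only by G1A. It had 410 reads against 5357269, a ratio of 13067 (11861 to 14430). piR-34358 carries G2A, ends 3 bases earlier and had 261 reads, with piR-35982 at 20526 times that number (18181 to 23263). Both entries that start at offset -5 also carry G1A. Over the 5 entries that cover position 1, those with G there had 5357530 reads and the 3 with A, piR-30456, piR-31068 and piR-35221, had 881. piR-30456 and piR-35221 have the same bases over their shared stretch except at their first base, which is A in the former and G in the latter (A1G, counted from the 5′ end of piR-30456). They had 464 and 7 reads.

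piR-57660 is the member that starts furthest into the frame, and its placement without gaps gives G34C near its 3′ end. Its first 25 bases match piR-61648 and piR-31925 without a break, and piR-61648 had 57.0 times its reads (55.3 to 58.7). piR-32679 lies wholly inside both piR-35982 and piR-31068, the only 2 nested pairs of the 45. A read with exactly its 29 bases would therefore fit all 3 entries. piR-35982 had 149 times its reads (148 to 151).

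Primary piRNAs usually start with U, and secondary piRNAs usually have A at base 10. Of the 10 members, 2 start with U, piR-61648 and piR-57660, and they held 4.26% of the members' reads (4.24 to 4.27%). Among the other 10477 entries, those that start with U made up 78.4% of the entries and held 75.6% of the reads. Entries that start with G, 4 of the 10 members and 8.33% of the others, held 91.05% of the members' reads and 13.98% of the others' reads. None of the 10 members has A at base 10, against 32.7% of the other entries, which held 7.60% of their reads. The shares of reads outside the set rest largely on piR-60565, an entry named for tRNA-Glu. It alone had 13089145 of the 27299683 piRNA reads. The members share sequence, so these counts are not independent of each other.

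The A box, the first of the control elements inside tRNA genes, was searched in every entry by its consensus of 11 bases, on both strands. All 10 members matched at positions 9 to 19 of the frame, inside the 13 bases they share. In the whole file 215 of 10487 entries, or 2.05%, matched on the listed strand and 63 (0.601%) on the other, where none of the 10 members did. The 205 matching entries outside the set held 83.8% of the reads outside it. That share rests largely on piR-60565, which alone had 13089145 reads. Because the match lies in the 13 bases that all members share, the members count as 1 observation of it. A match is a description of the letters only.

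In unbroken runs of equal bases, the set had a wide margin to the rest of the file. Compared without gaps, piR-35281 and piR-35283, both outside the set, equal piR-35284 at 20 and 19 of 28 bases. The members with the shortest run in common with a named entry were piR-30456 with 20 bases and 464 reads and piR-35221 with 22 bases and 7 reads. No entry had a run of 12 to 19 bases. The entries just outside had runs of 10 or 11 bases, 31 in number with 25429 reads, or 0.0931% of the piRNA reads. The one of these with the most reads was piR-36248, with 8216 reads, followed by piR-36251 with 5655 and piR-36249 with 4167. Each shares 11 bases with positions 13 to 23 of the frame, shown in capitals.
piR-36248: gggggtatagcTCAGTGGTAGAgcatttg
piR-36251: gggggtgtaacTCAGTGGTAGAgcatttga
piR-36249: gggggtatagcTCAGTGGTAGAgcatttga
On the opposite strand the longest run in common with a named entry was 11 bases, and the 3 entries with 10 or more such bases had 6 reads together. Of 1224 miRNAs with 11785001 reads, the longest run shared with the frame was 11 bases, in miR-183-5p, and none of 4107 RefSeq miRNA sequences or 35116 RefSeq promoters on GRCh38.p14 shared 20 bases with it on either strand.

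The set was compared with those of other abundant entries named for tRNA-Glu and tRNA-Lys, a link that was likewise not checked against a tRNA sequence. By the same length of run, 7 entries shared 20 bases with piR-60565 or piR-43771 (tRNA-Glu) and 10 with piR-35412 (tRNA-Lys). None of them was also a tRNA-Gly member. The tRNA-Gly set was gathered with 4 named entries and the other sets with fewer, which may bear on the totals and shares compared below. The tRNA-Glu and tRNA-Lys totals were 14565339 and 719954 reads. The tRNA-Gly set thus had 8.59 times the reads of the tRNA-Lys set (8.57 to 8.61), and the tRNA-Glu set had 2.35 times those of the tRNA-Gly set (2.35 to 2.36). All 3 sets had 1 leading entry of 31 bases, with 86.6% of the tRNA-Gly reads, 89.9% of the tRNA-Glu reads and 60.9% of the tRNA-Lys reads. The commonest start held 86.6% of the tRNA-Gly reads, 89.9% of the tRNA-Glu reads and 95.8% of the tRNA-Lys reads. The commonest 3′ end held 91.6%, 90.6% and 60.9% in the same order. In the tRNA-Gly and tRNA-Glu sets the share at the commonest end was the higher of the 2, and in the tRNA-Lys set the share at the commonest start was. With 1 library these differences between sets were not tested. The leading entries themselves are unlike: piR-35982 shares at most 7 bases in a row with piR-60565 and 6 with piR-35412.

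The mRNA library of the same cell line shows which genes of tRNA supply and cleavage were expressed. Values are FPKM, which scale fragments by gene length and library size, so genes can be compared, but the depth of this library is unknown. All 19 genes of the list were at 1 FPKM or more, against 77.5% of the 14376 protein-coding genes listed. The median of the list was 15.4 FPKM, against 7.82 for the coding genes. The list was chosen by role and with earlier results of these data known, so these values are a description. GARS1, which loads glycine onto its tRNA, was at 96.4 FPKM, higher than 95.96% of the coding genes. Of the genes that transcribe tRNA, the polymerase III subunits POLR3A and POLR3B were at 7.72 and 1.10 FPKM, and the factors BRF1 and GTF3C1 at 12.8 and 19.1 FPKM. MAF1, a repressor of polymerase III, was at 31.6 FPKM.

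Genes that finish tRNA ends lay between 7.66 and 35.6 FPKM. SSB, the La protein that binds new polymerase III transcripts, was at 35.6 FPKM and ELAC2, which trims the 3′ end, at 23.0 FPKM. TRNT1, which adds the CCA end, was at 15.4 FPKM, and the RNase P subunits RPP30 and POP1, of the enzyme that removes the 5′ leader, at 10.8 and 7.66 FPKM. TRDMT1, which methylates a cytosine near the anticodon of tRNA-Gly, was at 2.78 FPKM, and NSUN2, which methylates other tRNA cytosines, at 32.6 FPKM. Among ribonucleases, angiogenin (ANG) was at 3.14 FPKM and RNASE4, whose gene overlaps that of ANG so that their reads may not be separable, at 10.6 FPKM. RNASET2 was at 10.2 FPKM and DICER1 at 19.3 FPKM. RNH1, the inhibitor that binds angiogenin, was at 118 FPKM. YBX1, an RNA-binding protein reported to bind tRNA fragments, was at 236 FPKM, the highest of the list. The 2 libraries measure different RNAs in 1 sample each, and no relation between these genes and the tRNA-Gly entries was tested.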

How the data were processed

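Small RNA and mRNA of untreated U87MG cells were each sequenced in 1 library. Per the file headers, the authors deposited a read count for each miRNA and piRNA database entry, with its sequence, and an FPKM value per Ensembl gene. Adapter trimming with cutadapt and the builds hg19 and GRCh37 are named in the submitters' processing notes. The aligner, the mismatch rule and the treatment of reads that fit several entries are named by no source used here. These could shift reads between overlapping entries, or count a read more than once and so raise the totals. Depth was 27299683 piRNA reads and 11785001 miRNA reads.

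Longest shared runs, start offsets and substitutions were computed in Python 3.11.15 with pandas 2.3.3, and intervals (exact Clopper-Pearson, 95%) with SciPy 1.17.1. The rule for members and the start offsets were tested on simulated data, and the substitutions were not. A ratio's interval is that of the share of 1 entry in the reads of both. The letter N, in 115 entries, matched nothing. Genes were found by Ensembl identifier through the current symbol, for 19 of 19. Detection meant 10 reads or 1 FPKM. The members, the gene list and the named entries (all members, the nearest entries outside, and the tRNA-Glu and tRNA-Lys sets) were chosen with earlier results of these data known. Alternatives were other run lengths, read minimums, denominators and subsets of members.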

Additional observations from a re-analysis of the deposited data

How the results depend on the processing

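The number of members stayed between 8 and 10 under all 7 alternatives: it was 10 at a run of 16 or 18 bases, 9 at 22, 8 at 24, 10 with the run shared with any member, 9 with at least 10 reads and 10 with equal sequences counted once. Their share of the piRNA reads moved by less than its interval under 6 of 8 alternatives. It was 15.8% of piRNA and miRNA reads together and 43.5% without piR-60565, the entry with the most reads. The concentration of the reads rests on piR-35982. Without it, the commonest start was offset 1 with 33.1%, the commonest length 30 bases with 33.1%, and the commonest end still position 31 with 37.5%. Only over members with no substitution, offset 0 held 90.7% and the end at position 31 held 91.3%. With at least 10 reads the commonest length stayed at 90.7%. Both alternatives for the end position were chosen after seeing the data. No paired analysis was possible because each kind of library has 1 sample. Depth limits the least abundant members: piR-35221 rests on 7 reads.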

Other observations

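A few entries outside the set open like piR-35284 and then part from it. They were chosen after their values were seen, and capitals mark the opening they have in common with it.
piR-35280: GCATTGGTatagtggtatcatgcaaga
piR-35281: GCATTGGTGGTatagtggtaagcatagc
piR-35283: GCATTGGTGGTatagtggtgagcatagc
piR-35280 had 5758 reads and shares its first 8 bases with piR-35284. piR-35281, with 978 reads, and piR-35283, with 350 reads, share the first 11 bases. Compared without gaps over 28 bases, piR-35281 equals piR-35284 at 20 and piR-35283 at 19. Over 27 bases piR-35280 equals it at 11 and differs at 16. piR-35284 itself had 274749 reads.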
